A study of Homo sapiens with 6 samples.

Results

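NRF2, encoded by NFE2L2, its inhibitor KEAP1 and 8 genes of the glutathione and thioredoxin systems were followed in H660 cells with and without induction of a MUC1 shRNA. The set was chosen by symbol, as NFE2L2, KEAP1, NQO1, HMOX1, GCLC, GCLM, GPX4, TXN, TXNRD1 and SRXN1. All 10 symbols were found among the 28008 genes of the count table, and all 10 were among the 17026 genes with enough counts to test. H660 (NCI-H660) is a neuroendocrine prostate cancer (NEPC) line, and every library came from H660 cells carrying a tetracycline-inducible shRNA against MUC1. The DOX-negative group had 0.1% DMSO as vehicle (n = 3), and the DOX-positive group had 500 ng/ml doxycycline (DOX), the drug that switches on the shRNA, for 7 days (n = 3). No DOX-treated cells without the MUC1 hairpin were analysed here, so the effects of the drug and of the silencing cannot be told apart. MUC1-C, the transmembrane subunit made from MUC1, has been studied in cancer cells as a regulator of redox balance and stemness, and the comparison asks which transcripts differ when MUC1 is silenced.

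NRF2 is a transcription factor that is held in the cytoplasm by KEAP1, which passes it to a CUL3 ubiquitin ligase for destruction. Oxidants and electrophiles modify cysteines of KEAP1, NRF2 then accumulates, pairs with a small MAF protein and binds antioxidant response elements (AREs) near genes for glutathione synthesis, NADPH-dependent reduction and detoxification. Because NRF2 is controlled mainly through protein stability, the NFE2L2 transcript is not a measure of NRF2 activity, and the transcripts of its target genes are the usual readout. In prostate cancer the glutathione and thioredoxin systems are studied for their part in survival under oxidative stress, and GPX4 for its part in resisting ferroptosis, a death by lipid peroxidation.

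To show where an ARE core lies close to the start of these genes, the 250 bases before each annotated start were searched on both strands for TGACNNNGC, in which N is any base. These windows were RefSeq promoters on GRCh38.p14. The table held 14 promoters for 9 of the 10 genes, and HMOX1 was not among them. The core was present in 4 of the 14 windows, at KEAP1, GCLM and TXNRD1, against 10.9% of all 35116 promoters of that length. The sites are printed 5′ to 3′ on the strand of the gene with the matched letters in capitals and 10 bases to each side, because they are the shortest stretch that shows the letters NRF2 is known to read.
KEAP1 promoter 2, 54 bases before the start: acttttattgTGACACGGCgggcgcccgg
KEAP1 promoter 2, 31 bases before the start: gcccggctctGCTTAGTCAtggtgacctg
GCLM promoter 1, 34 bases before the start: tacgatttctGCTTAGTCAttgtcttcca
TXNRD1 promoter 1, 99 bases before the start: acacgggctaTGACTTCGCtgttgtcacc
TXNRD1 promoter 2, 102 bases before the start: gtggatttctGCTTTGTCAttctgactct
In that order the printed stretches lie at chr19:10502807-10502835 and chr19:10502784-10502812 on the minus strand, chr1:93909446-93909474 on the minus strand, and chr12:104215670-104215698 and chr12:104286920-104286948 on the plus strand. KEAP1 and GCLM shared the 9 matched letters GCTTAGTCA, read from the opposite strand. The stretch at TXNRD1 promoter 1 overlapped no annotated feature, whereas the other 4 also lay in an untranslated part of an exon of a longer transcript of the same gene. The TGAC that opens the core is shared with AP-1 sites. A match describes the letters only, and the genes without one in this window, including NQO1 and GCLC, may hold one farther away.

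The libraries held between 47620696 and 74061121 counts, and the replicates of a group differed more than sampling noise. Replicates were cultures in triplicate, and nothing in the sources says that they were separate experiments, so p-values measure the spread between these cultures. The label was checked against marker genes. Of 10 neuroendocrine markers, 8 were at or above 1 CPM on average. The summed level of the 10 was 896 to 1008 CPM without DOX and 801 to 891 CPM with DOX, which did not overlap. Among them 2 were called, NCAM1 (201 to 141 CPM) and INSM1 (112 to 81.8 CPM), both lower. The other neuroendocrine markers were not called and their means moved in both directions, so the lower sum does not stand for every marker. Among 7 markers of luminal prostate cells, 2 were at or above 1 CPM, 0 were called, and KLK3 had 0 counts in every library. The summed luminal level was 4.05 to 4.79 CPM without DOX and 3.76 to 4.69 CPM with DOX, which overlapped. Of 9 fibroblast markers, 3 were at or above 1 CPM, with COL1A1 (8.16 to 12.4 CPM) and LUM (1.20 to 2.49 CPM) called higher, COL1A2 at 18.1 and 11.1 CPM (not called), and COL3A1 and THY1 at 0 counts. The summed fibroblast level overlapped, at 25.2 to 30.7 CPM without DOX and 23.5 to 27.9 CPM with DOX. Of 5 leukocyte markers, CD68 was called higher (1.12 to 1.92 CPM), CD3E had 0 counts, and the sum was 1.14 to 1.23 CPM without DOX and 1.84 to 2.04 CPM with DOX. The part of these marker changes in the redox genes was not tested. These are bulk libraries, in which fewer cells with a transcript and less transcript per cell cannot be told apart. MUC1, the gene that the shRNA targets, was at 88.2, 90.2 and 79.6 normalized CPM without DOX and at 36.7, 37.2 and 29.9 CPM with DOX, and it fell by 1.32 on the log2 scale (SE 0.096, edgeR adjusted p = 0.00017). Here normalized CPM are counts scaled to a common library total with TMM factors, and adjusted p values come from edgeR's quasi-likelihood test with Benjamini-Hochberg adjustment over all 17026 genes.

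Against this fall of MUC1, none of the 10 redox genes changed by the test. Of all genes tested, 4.87% were called at an adjusted p under 0.05 (496 or 2.91% higher, and 333 or 1.96% lower), and 0 of the 10 were. At an unadjusted p under 0.05 stood 21.1% of all genes and again 0 of the 10. The groups overlapped in normalized CPM for all 10, whereas they did not for 28.1% of all genes tested. The log2 fold changes, DOX-positive over DOX-negative, were between -0.058 (GCLM) and 0.23 (HMOX1), with 7 genes higher and 3 lower. Their median was 0.067, against 0.00034 over all genes, of which 8528 were higher and 8498 lower.

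**Figure D1:**
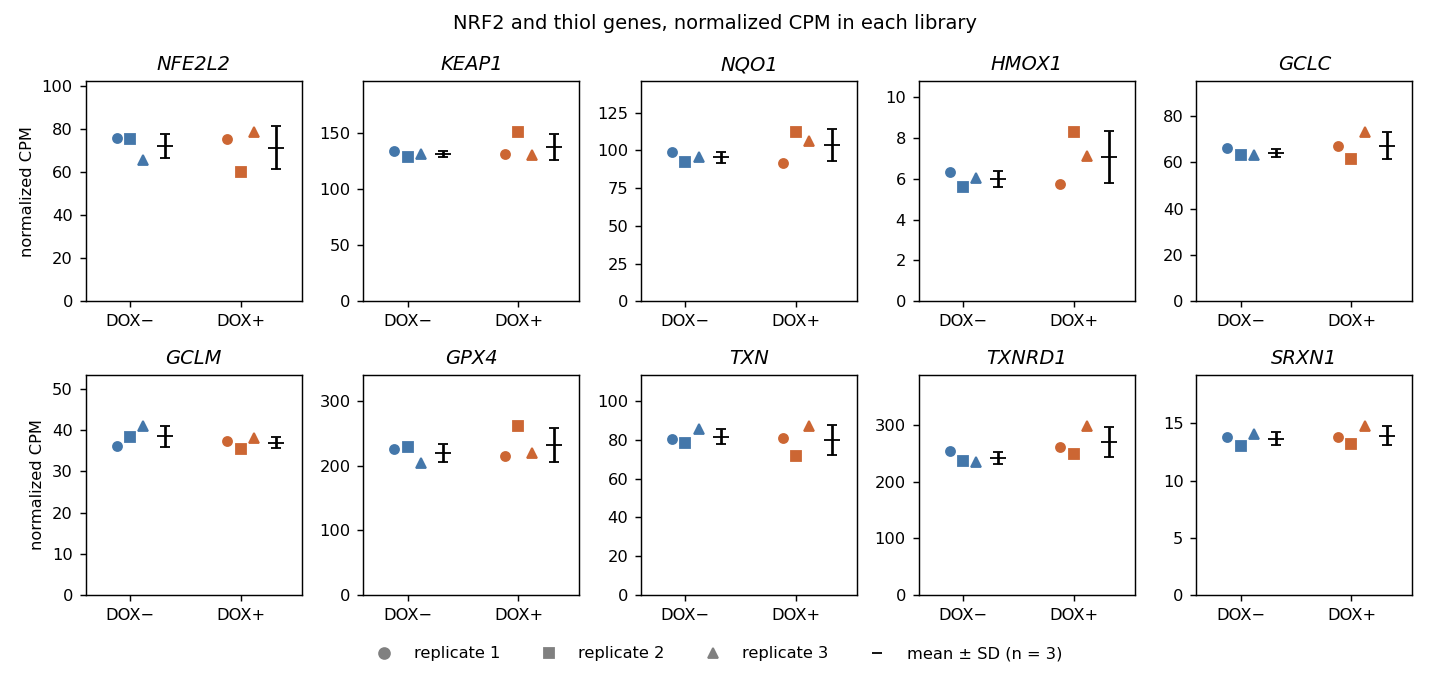
Normalized CPM (y axis, from 0, scaled per gene) of the 10 genes in the 3 DOX-negative and 3 DOX-positive libraries, with replicate numbers as symbols and group mean ± SD as black bars. The groups overlap in every panel, and DOX-positive 2 is the highest or the lowest library in 8 of the 10 panels.

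NFE2L2, which encodes NRF2, was at 75.6, 75.0 and 65.3 CPM without DOX and at 75.3, 60.0 and 78.5 CPM with DOX. The lowest and the highest of the 6 libraries were thus both DOX-positive. The means were 72.0 ± 5.76 and 71.3 ± 9.93 CPM (SD, n = 3), and the log2 fold change was -0.014 (SE 0.10, adjusted p = 0.96). Its 95% interval ran from -15.3% to 15.8%. KEAP1, the adaptor that brings NRF2 to the ubiquitin ligase, was at 134, 128 and 131 CPM without DOX and at 131, 151 and 129.6 CPM with DOX. Only DOX-positive 2 stood above the DOX-negative range. The log2 fold change of KEAP1 was 0.065 (SE 0.077, adjusted p = 0.68).

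NQO1 and HMOX1 are the enzymes most often used as readouts of NRF2. NQO1, a quinone reductase that uses NADH or NADPH, was at 99.0, 91.9 and 95.3 CPM without DOX and at 91.5, 112 and 106 CPM with DOX. DOX-positive 2 and 3 were above all DOX-negative libraries, and DOX-positive 1 was below them. The NQO1 means were 95.4 ± 3.52 and 103 ± 10.6 CPM (SD, n = 3), a log2 ratio of 0.11 (SE 0.085, adjusted p = 0.48). HMOX1, which opens the haem ring to release iron and biliverdin, had the fewest counts of the 10. It was at 6.32, 5.58 and 6.05 CPM without DOX and at 5.76, 8.29 and 7.11 CPM with DOX, from 288 to 524 counts per library. As for NQO1, the libraries split the DOX-positive group, with DOX-positive 2 highest and DOX-positive 1 inside the DOX-negative range. HMOX1 had the largest estimate of the set at 0.23 and also the largest error (SE 0.14, adjusted p = 0.36), and its 95% interval ran from -0.063 to 0.53. Without DOX-positive 1, HMOX1 was 0.36 higher and NQO1 0.20 higher on the log2 scale, with unadjusted edgeR p values of 0.016 and 0.042 and adjusted p values of 0.13 and 0.21, still not called. Over the 19 alternatives their adjusted p ranged from those values to 1. Leaving out DOX-positive 1 removed the lowest DOX-positive level of both genes. Without DOX-positive 2, the highest library of both, the log2 fold change was lower, at 0.11 for HMOX1 and 0.053 for NQO1.

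Glutathione is made in 2 steps, and the first is carried out by glutamate-cysteine ligase, whose catalytic subunit is GCLC and whose modifier subunit is GCLM. GCLC was at 66.0, 62.9 and 63.1 CPM without DOX and at 66.9, 61.3 and 73.0 CPM with DOX, a log2 ratio of 0.069 (SE 0.080, adjusted p = 0.68). GCLM was at 36.2, 38.2 and 41.1 CPM without DOX and at 37.4, 35.4 and 38.0 CPM with DOX, a log2 ratio of -0.058 (SE 0.081, adjusted p = 0.74). The subunits thus had estimates of opposite sign, each smaller than its error. GPX4, the selenoprotein that uses glutathione to reduce lipid hydroperoxides, was at 225, 229 and 204 CPM without DOX and at 215, 262 and 219 CPM with DOX. Only DOX-positive 2 was above the DOX-negative range, and the log2 fold change was 0.081 (SE 0.088, adjusted p = 0.66).

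In the thioredoxin system, TXN is the small protein that reduces disulfides, TXNRD1 is the cytosolic selenoprotein that restores it with NADPH, and SRXN1 rescues over-oxidized peroxiredoxins. TXN was at 80.1, 78.4 and 85.7 CPM without DOX and at 80.7, 71.7 and 87.2 CPM with DOX. Here too the lowest and highest libraries were both DOX-positive, with a log2 ratio of -0.027 (SE 0.085, adjusted p = 0.89). SRXN1 was at 13.9, 13.0 and 14.1 CPM without DOX and at 13.9, 13.2 and 14.8 CPM with DOX, a log2 ratio of 0.031 (SE 0.089, adjusted p = 0.89). SRXN1 had the narrowest spread, its highest library being 1.14 times its lowest. TXNRD1 was at 254, 237 and 235 CPM without DOX and at 261, 249.5 and 299 CPM with DOX. DOX-positive 1 and 3 exceeded all DOX-negative libraries and DOX-positive 2 lay within their range. The TXNRD1 means were 242 ± 10.6 and 270 ± 25.7 CPM (SD, n = 3), and the log2 fold change of 0.16 (SE 0.082) had the smallest adjusted p of the set, 0.30. Without DOX-positive 2 it was 0.21 with an unadjusted edgeR p of 0.014 and an adjusted p of 0.11. Without DOX-positive 3, the highest library of TXNRD1, it was 0.078 with an unadjusted edgeR p of 0.35 and an adjusted p of 0.65.

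How large a change these data leave room for is given by the intervals. All 10 of the 95% intervals lay inside a 1.5-fold change in either direction, which is 0.58 on the log2 scale. The upper ends were highest for HMOX1, at 44.3% above the DOX-negative level, and for TXNRD1, at 26.2%. The lower ends reached furthest for NFE2L2 and GCLM, at 15.3% and 15.0% below. The 10 genes were also measured with slightly less error than most, with a median SE of 0.085 against 0.10 over all genes tested, and the median size of their change, regardless of sign, was 0.067 against 0.13. Changes within these intervals could have been missed at this depth and replication. The intervals are not the limit for a call, which needs an adjusted p under 0.05. MAFG, a gene outside the 10, was at 0.20 with a 95% interval of 0.039 to 0.37 and was not called (edgeR adjusted p = 0.15).

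**Figure D2:**
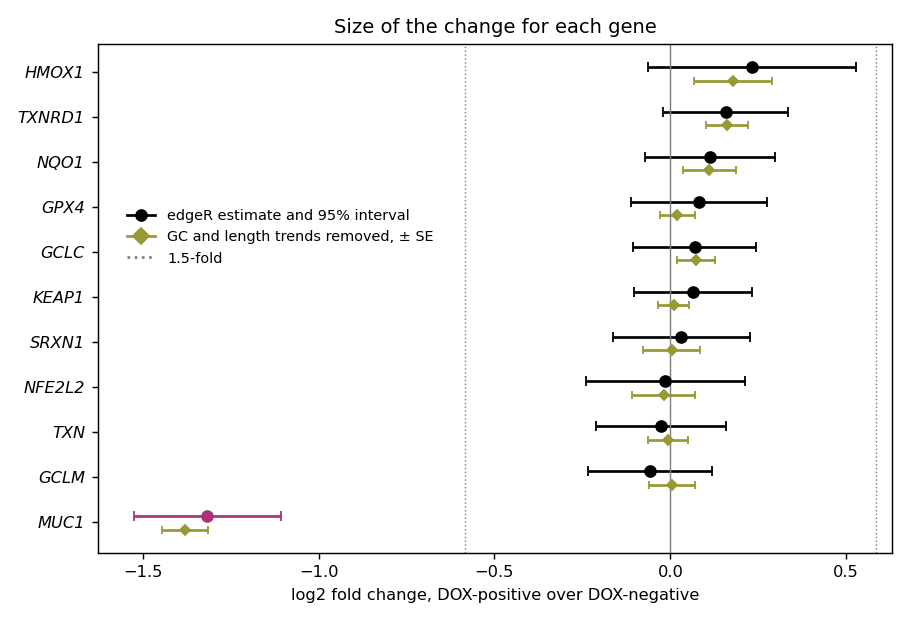
Log2 fold change (x axis) of MUC1 and the 10 genes, with the edgeR 95% interval as circles and bars, and the estimate after trends in GC content and length were removed as diamonds with ± SE. All 10 intervals include 0 and stay within the dotted 1.5-fold lines, while MUC1 is at -1.32.

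The spread within the DOX-positive group followed the libraries. DOX-positive 2 had the highest level of 4 genes, KEAP1, NQO1, HMOX1 and GPX4, and the lowest level of 4 others, NFE2L2, GCLC, GCLM and TXN. DOX-positive 3 had the highest level of NFE2L2, GCLC, TXN, TXNRD1 and SRXN1. In DOX-positive 2 the genes ranged from -0.25 for NFE2L2 to 0.34 for HMOX1 in log2 units around their mean over the 6 libraries. Of the 4 genes that were highest there, 3 had the highest GC content of the set, with 62.5% for GPX4, 60.3% for KEAP1 and 58.1% for HMOX1 in the longest transcript. NQO1, the other gene, had 46.0%, close to the 45.6% of NFE2L2, which was lowest in that library. Across 15962 genes with a known GC content, the deviation of DOX-positive 2 from the mean correlated with GC content (Pearson r = 0.63, over genes of 1 library, which are not independent), and GC-rich genes stood 0.35 log2 units above GC-poor ones. In the other 5 libraries that difference was between -0.15 and 0.031.

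Removing trends in GC content and length from each library, a choice made after the data were seen, left 0 of the 10 genes called. It narrowed the range of the 10 genes in DOX-positive 2 from 0.59 to 0.42 log2 units, and the SE became smaller for all 10 genes. The SE of KEAP1 went from 0.077 to 0.045 and its log2 fold change from 0.065 to 0.0091. For GPX4 the SE went from 0.088 to 0.049 and the log2 fold change from 0.081 to 0.020. TXNRD1 kept an estimate of 0.16, now with an SE of 0.060, an unadjusted edgeR p of 0.020 and an adjusted p of 0.10, the smallest that TXNRD1 had in the 19 alternatives, where it went up to 1. HMOX1 and NFE2L2 still deviated in DOX-positive 2, by 0.19 and -0.21. Some genes moved away from their mean in that library: NQO1 from 0.18 to 0.21, SRXN1 from -0.063 to -0.15 and GCLM from -0.088 to 0.14. GCLC and TXN moved closer to it, from -0.093 to -0.022 and from -0.17 to -0.088.

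**Figure D3:**
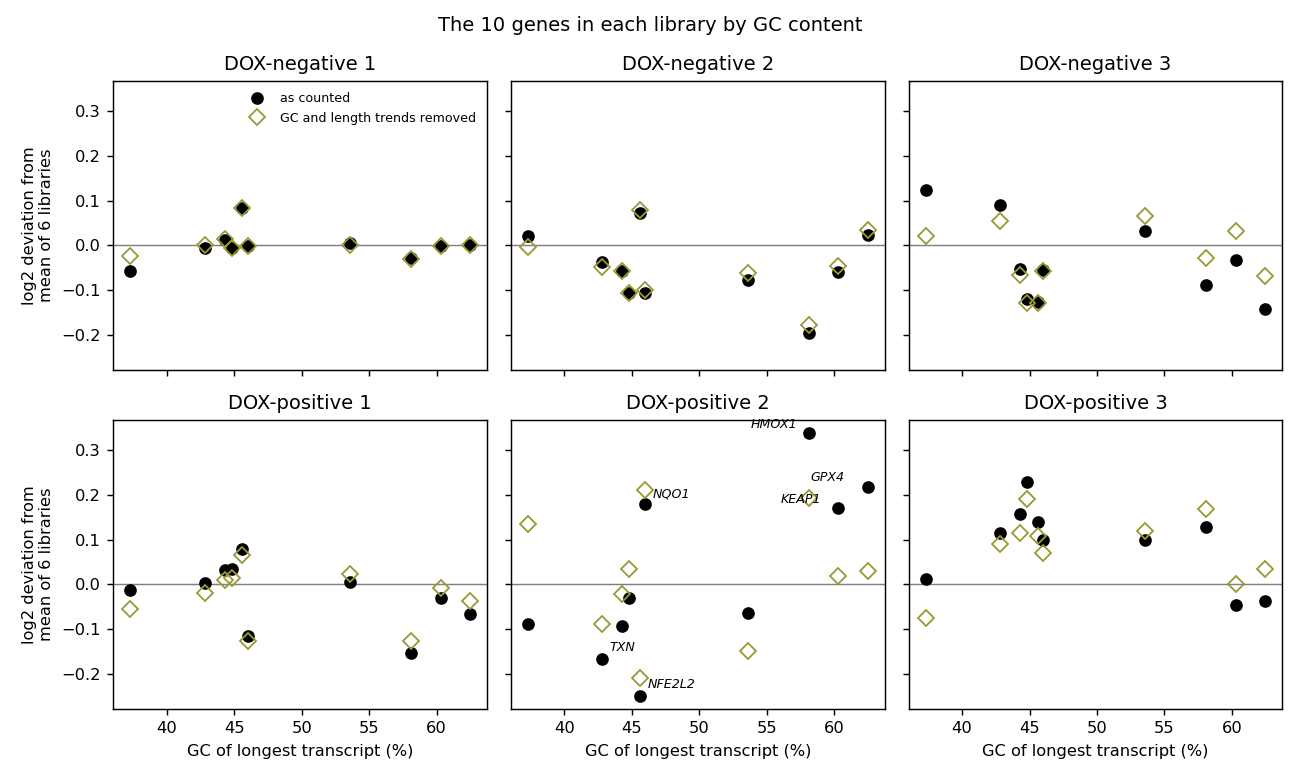
Log2 deviation of each of the 10 genes from its mean over the 6 libraries (y axis) against the GC content of its longest transcript in percent (x axis), 1 panel per library, as counted (filled) and after GC and length trends were removed (open). In DOX-positive 2 GPX4, KEAP1 and HMOX1 lie above 0 as counted, and GPX4 and KEAP1 move close to 0 after removal.

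Some of the genes moved together from library to library. Over the 6 libraries the correlation of log2 normalized CPM (0.5 added) was highest for NQO1 with HMOX1 (Pearson r = 0.99). Next came GCLC with TXNRD1 (r = 0.92), TXN with SRXN1 (r = 0.85) and KEAP1 with GPX4 (r = 0.84). GPX4 and TXN ran against each other (r = -0.89). These points share the libraries, their depth and the GC trend above, and the values are a description. The 3 genes whose levels followed NFE2L2 most closely among 10249 genes were HNRNPD (r = 0.996), DNTTIP2 (r = 0.99) and SCARNA9 (r = 0.99), and none of these was called either.

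Levels were compared between genes in the deposited TPM, which are per length. GPX4 was the most abundant transcript of the set at 95.1 ± 17.8 TPM in DOX-negative libraries (SD, n = 3), then TXN at 62.8 ± 5.47 TPM. TXNRD1 at 28.5 ± 4.27 TPM and KEAP1 at 27.2 ± 3.47 TPM did not differ beyond their spread, with TXNRD1 above KEAP1 in 5 of the 6 libraries. Below them came NQO1 at 20.4 ± 2.60 TPM, NFE2L2 at 11.1 ± 2.24 TPM and GCLC at 9.20 ± 1.27 TPM. NFE2L2 exceeded GCLC in all 6 libraries but by only 1.04 to 1.27 times. GCLM at 4.11 ± 0.386 TPM was followed by SRXN1 at 2.84 ± 0.286 TPM and HMOX1 at 2.23 ± 0.274 TPM, and SRXN1 was above HMOX1 in 5 of the 6 libraries. The other neighbours kept their order in all 6 libraries. The scale of TPM against CPM differed between libraries by up to 1.51 times, and RN7SK, a noncoding RNA, took 21.2% to 27.1% of the TPM of a library, so levels were compared within libraries.

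**Figure D4:**
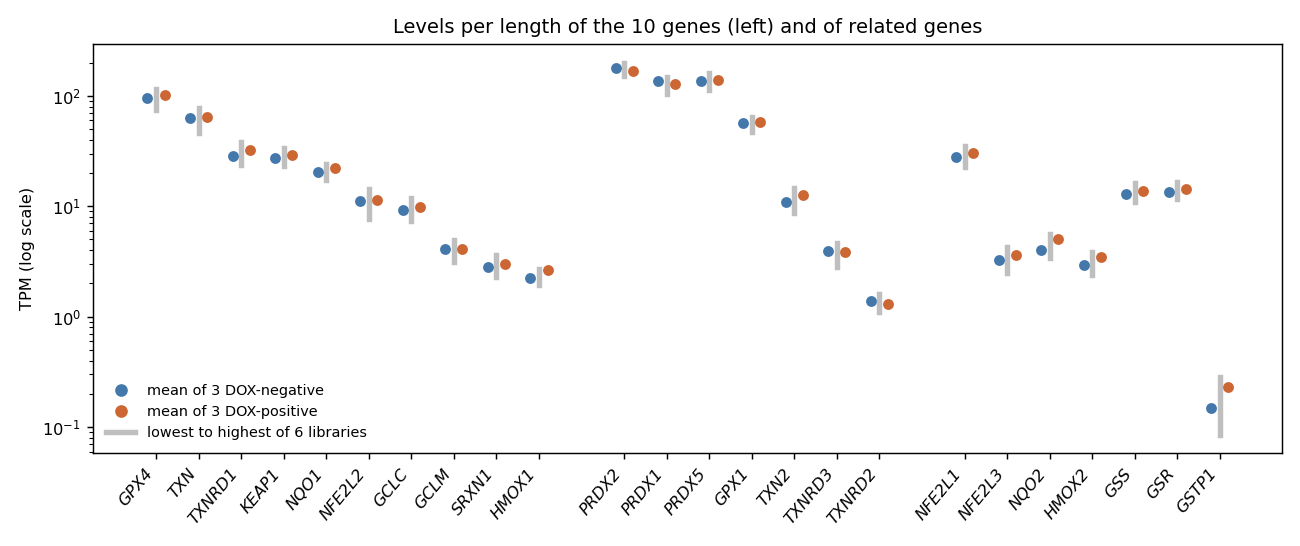
TPM on a log scale (y axis) of the 10 genes, ordered by level, and of related genes to their right. Points are group means (n = 3) and grey bars run from the lowest to the highest of the 6 libraries. The levels span from 95.1 TPM for GPX4 to 2.23 TPM for HMOX1 in DOX-negative libraries, and GSTP1 lies below them all.

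Within a library the ratio of KEAP1 to NFE2L2 transcripts was 2.31 to 2.71 without DOX and 2.23 to 3.40 with DOX, and that of GCLC to GCLM was 2.06 to 2.45 without DOX and 2.32 to 2.58 with DOX. Both ratios overlapped between the groups. TXN was 2.07 to 2.40 times TXNRD1 without DOX and 1.89 to 2.03 times with DOX. TXNRD1 was 9.39 to 10.4 times SRXN1 without DOX and 10.6 to 11.4 times with DOX. These last ratios, 2 of the 4 in this paragraph, did not overlap between the groups, and both contain TXNRD1, so they are not separate results. An exact two-sided permutation test gave p = 0.10 for each, the smallest value possible with 3 against 3 libraries. Further ratios, to relatives of the genes, were also examined, and those of NQO1 to NQO2 and of TXNRD1 to TXNRD3 did not overlap either. How often ratios separate in this way over all genes was not counted. In TPM alone the groups did not overlap for HMOX1, at 2.46, 2.30 and 1.93 TPM without DOX and 2.67, 2.56 and 2.66 TPM with DOX. The same permutation test gave p = 0.10 for HMOX1 in TPM, again the smallest possible. Of all 11707 genes with a mean of at least 1 TPM, 3.39% did not overlap in this way, and HMOX1 overlapped in CPM. A comparison of TPM between libraries also holds the differences in TPM scale described above.

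Of 6 genes compared with relatives by TPM within each library, 4 were the more abundant form in all 6 libraries. TXNRD1 was 19.0 to 32.1 times the mitochondrial reductase TXNRD2 and 6.75 to 8.76 times TXNRD3. TXN was 3.88 to 6.52 times the mitochondrial TXN2, NQO1 was 4.05 to 5.13 times NQO2, and GPX4 was 1.60 to 1.78 times GPX1, the cytosolic peroxidase for soluble peroxides. For NFE2L2 and HMOX1 the relative was higher. NFE2L1, a related factor that controls proteasome genes, was 2.45 to 3.28 times NFE2L2, and the constitutive haem oxygenase HMOX2 was 1.17 to 1.44 times HMOX1.

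Some genes of the set could share reads with others. TXN has 7 annotated pseudogenes and SRXN1 has 1, which were absent from the count table, so how their reads were counted is not known. The antisense genes NQO1-AS1, GCLC-AS1 and TXNRD1-AS1 overlap their namesakes, EID3 lies inside TXNRD1, and the strand setting of the counting was not given in the sources used here.

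The wider pathway was described with 9 lists of 209 other redox genes. Of these, 181 were tested and 7 were called (3.87%), 6 higher and 1 lower, against 4.87% of all genes. The median log2 fold change of the 181 was 0.044, with 114 above 0 and 67 below. Over all genes tested it was 0.00034, with 8528 above 0 and 8498 below. The calls fell among targets for transport and detoxification, a prostaglandin synthase and genes around the thioredoxins, and in 6 of the 9 lists no gene was called. All 7 calls were lost without DOX-negative 2 and also without DOX-negative 3.

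**Figure D5:**
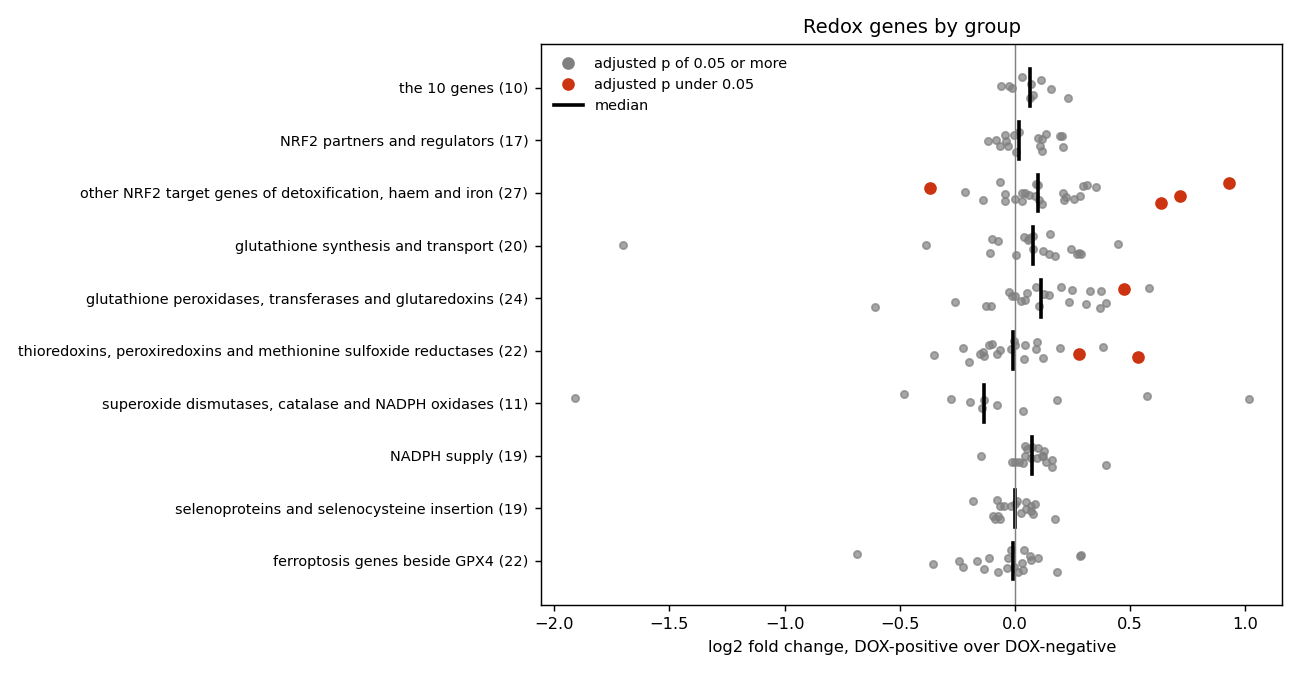
Log2 fold change (x axis) of each tested gene in the set of 10 and in the 9 lists, with the number tested in brackets, medians as bars and genes called at an adjusted p under 0.05 in red. The 10 genes cluster near 0, and the 7 red points are in 3 lists.

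Of the 17 partners and regulators of NRF2, 0 were called, with a median of 0.020. MAFG, a small MAF protein that pairs with NRF2, was at 53.9, 51.3 and 50.7 CPM without DOX and at 56.2, 60.6 and 62.8 CPM with DOX, which did not overlap (log2 fold change 0.20, SE 0.076, adjusted p = 0.15). SQSTM1 (p62), which binds KEAP1 and takes it to autophagy, was 0.20 higher with overlapping groups (SE 0.088, adjusted p = 0.22). The ligase subunits CUL3 and RBX1 had log2 fold changes of -0.063 and -0.12.

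Other target genes of NRF2 for detoxification, haem and iron held 4 of the 7 calls. Out of 27 tested this was 14.8%, against 4.87% of all genes, and the median was 0.10. Of the 27, 21 were above 0, and 10 had an unadjusted edgeR p under 0.05, against 21.1% of all genes. The groups did not overlap in CPM for 9 of them, against 28.1% of all genes. These genes share the same 6 libraries, so the tallies are a description. ABCC3, an export pump for conjugates, was at 1.35, 1.12 and 1.39 CPM without DOX and at 1.79, 2.60 and 2.96 CPM with DOX (log2 fold change 0.93, SE 0.20, adjusted p = 0.024). ABCC4, an export pump for cyclic nucleotides and conjugates, rose by 0.72 (SE 0.13, adjusted p = 0.012) from 4.43 ± 0.350 to 7.29 ± 1.03 CPM (SD, n = 3). SLC40A1, the iron exporter ferroportin, rose by 0.63 (SE 0.12, adjusted p = 0.015) from 10.9 ± 0.787 to 17.0 ± 2.79 CPM. AKR1C3, a keto reductase that acts on steroids and prostaglandins, fell by 0.37 on the log2 scale (SE 0.081, adjusted p = 0.026) from 22.8 ± 0.663 to 17.7 ± 0.497 CPM. In TPM AKR1C3, the one that fell, was the most abundant of these 4 genes without DOX, at 6.65 ± 0.924 TPM against 1.80 ± 0.312 TPM for SLC40A1. Several genes of this list were barely present, unlike NQO1, GCLC and TXNRD1. AKR1B10, CES1, UGT1A6 and FTMT had 0 counts in all 6 libraries, and AKR1C2 and ALDH3A1 had 2 and 7 counts over all 6 together. A count of 0 in a single library allows an expected count of up to 3, and 0 in all 6 allows less.

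Among genes of glutathione synthesis and transport, 0 of 20 were called, with a median of 0.081. GGT5, a membrane enzyme that cleaves glutathione conjugates, was at 2.28, 3.18 and 2.56 CPM without DOX and at 1.15, 1.07 and 0.27 CPM with DOX (log2 fold change -1.70, SE 0.40, adjusted p = 0.051). SLC3A2, the heavy chain of the cystine transporter, did not overlap either (log2 fold change 0.29, SE 0.081, adjusted p = 0.064), and its partner SLC7A11 was at 0.15 (adjusted p = 0.45). Of 24 glutathione peroxidases, transferases and glutaredoxins, 1 was called (4.17%), with a median of 0.12. This was PTGES, a glutathione-dependent prostaglandin E synthase, which rose from 7.23 ± 0.853 to 10.1 ± 1.15 CPM (log2 fold change 0.48, SE 0.12, adjusted p = 0.045). The PTGES call was lost in 10 of 19 alternatives, among them limma-voom (adjusted p = 0.059) and no scaling factors (adjusted p = 0.056), in a range of 0.011 to 1. GSTO1, an omega class transferase, was at 0.33 (SE 0.096, adjusted p = 0.071). GSTP1, a transferase often silenced in prostate cancer, had 106 counts over all 6 libraries, while GSTM1 and GSTT2B had 0.

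Of the 22 thioredoxins, peroxiredoxins and related genes, 2 were called (9.09%, against 4.87% of all genes) around a median of -0.0093. SESN2, a stress-induced sestrin, was at 58.2, 51.9 and 52.6 CPM without DOX and at 69.9, 84.4 and 81.6 CPM with DOX (log2 fold change 0.54, SE 0.088, adjusted p = 0.0092). RRM2, the ribonucleotide reductase subunit that works with thioredoxin or glutaredoxin as donor, was at 115, 116 and 123 CPM without DOX and at 144, 141 and 144 CPM with DOX (log2 fold change 0.28, SE 0.068, adjusted p = 0.038). The RRM2 call was lost in 11 of 19 alternatives, among them no scaling factors (adjusted p = 0.062), in a range of 0.0055 to 1. Neither is a thiol carrier of the kind of TXN. PRDX1 and PRDX2, the abundant cytosolic peroxiredoxins that TXN reduces, were at -0.14 (adjusted p = 0.33) and -0.10 (adjusted p = 0.60). PRDX1 stood at 1.89 to 2.29 times TXN within libraries.

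The remaining lists had 0 calls. The 11 superoxide dismutases, catalase and oxidase genes had a median of -0.13, and the oxidase subunit CYBA, at -1.91 (adjusted p = 0.11), had a mean of only 19 counts. The 19 genes of NADPH supply, the reductant that TXNRD1 and NQO1 use, had a median of 0.074. Of these 17 were above 0, against 8528 of all 17026 genes tested, and 1 had an unadjusted edgeR p under 0.05. The genes share the same 6 libraries, so the tally of signs is a description. ME2, a mitochondrial malic enzyme, was at 0.40 (SE 0.11, adjusted p = 0.058), and NNT, the mitochondrial transhydrogenase, was at -0.14 (adjusted p = 0.24). The 19 selenoprotein and selenocysteine genes, which include the factors that GPX4 and TXNRD1 need for their selenocysteine, had a median of 0.0028 and ranged from -0.18 for the receptor LRP8 (adjusted p = 0.16) to 0.17 for TRNAU1AP (adjusted p = 0.21). The 22 ferroptosis genes beside GPX4 had a median of -0.0094. ACSL3, which activates monounsaturated fatty acids, was at -0.36 (SE 0.11, adjusted p = 0.081), and MBOAT1, a phospholipid acyltransferase, was at 0.28 (SE 0.087, adjusted p = 0.083).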

How the data were processed

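Total RNA from triplicate cultures was prepared as stranded mRNA libraries (per the labels). The sources differ on the culture medium, of which the paper's version adds supplements that include selenium. Raw counts by gene symbol and TPM were deposited by the authors, and the submitters' processing notes name STAR, DESeq2 and GRCh38 (hg38). The annotation and the strand setting were not given in the sources used here. All 6 columns of each table matched a sample title, 0 columns of other samples were found, and 0 entries named no gene.

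Counts were filtered with filterByExpr, scaled with TMM (factors 0.967 to 1.03) and tested with edgeR 4.0.16 (R 4.3.3) by glmQLFit with robust estimation and glmQLFTest, with no covariate. Genes were called at an adjusted p under 0.05. The biological coefficient of variation was 9.58%. SE and 95% intervals came from the quasi-likelihood fit. Alternatives were other scalings and filters, DESeq2 1.42.0, limma 3.58.1 (voom, and log2 TPM with pseudocounts of 1 and 0.1), leaving out 1 library at a time, a replicate block and, added later, GC and length trends removed and TPM rescaled over protein-coding genes. GC content came from GENCODE transcripts (93.8% of tested genes), and promoters and positions from RefSeq (GRCh38.p14). The code was tested on simulated counts.

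The 10 genes, the lists and the marker genes were chosen with earlier results of these data known. Beside the 10 genes, MUC1 and the 3 genes most like NFE2L2 (mean of at least 10 CPM), the rule named from each list up to 4 called genes with the largest change, or, with fewer than 2 called, the 2 with the smallest adjusted p. Other genes (CUL3, RBX1, SLC7A11, PRDX1, PRDX2, relatives of the 10 and genes near 0 counts) were named after their values were seen. A gene that the rule named and a marker gene are not reported here.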

Additional observations from a re-analysis of the deposited data

How the results depend on the processing

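None of the 10 genes was called in any of the 19 alternatives. Sign changes among them were of estimates close to 0: NFE2L2 was 0.0047 in both fits of log2(TPM + 1) and 0.0028 with a pseudocount of 0.1, and GCLM was 0.0047 with GC and length trends removed. Leaving out 1 library gave ranges of -0.089 to 0.098 for NFE2L2, -0.0049 to 0.10 for KEAP1, -0.012 to 0.13 for GPX4, -0.095 to 0.047 for TXN and -0.015 to 0.071 for SRXN1. The ranges of GCLC, GCLM, HMOX1, NQO1 and TXNRD1 kept their sign, and these 9 reversals of 60 values all stood beside adjusted p values from 0.45 to 0.998.

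The number of all genes called, 829 by edgeR, was 1354 with DESeq2 and 2076 with GC and length trends removed. In limma on TPM it was 30 (pseudocount 1) and 35 (pseudocount 0.1) with a minimum mean of 1 TPM, 0 without that filter (1248 at an unadjusted p under 0.05), and 382 with TPM rescaled over protein-coding genes. The share of calls that were higher went from 59.8% to 43.3% in the filtered log2(TPM + 1) fit. Leaving out 1 library gave 58 (without DOX-negative 3) to 1035 genes. Of the other redox genes, 7 by edgeR, 11 were called without a count filter, 14 with DESeq2, 24 with GC and length trends removed, and 0 in all 3 fits of TPM as deposited (4, 4 and 8 at an unadjusted p under 0.05). Leaving out 1 library gave 0 to 13 of these. Without DOX-negative 2 and without DOX-negative 3 it gave 0 by edgeR, with 28 and 24 at an unadjusted p under 0.05. MUC1 was -1.37 to -1.22 with 1 library left out, and -1.22 with an adjusted p of 0.29 in unfiltered TPM, the highest of a range that began at 8.6e-33. Of the 7 other redox genes called by edgeR, SLC40A1 and SESN2 were called in 14 of 19 alternatives, AKR1C3 in 12, PTGES in 9 and RRM2 in 8, ABCC4 in 14 of 17 and ABCC3 in 11 of 16. GGT5, not called by edgeR, was called in 9 of 17. Same-numbered replicates of the groups did not deviate together (correlations of -0.58, 0.028 and -0.071 over 14256 genes), so no pairing by number was seen. This check cannot exclude pairing, because the deviations also hold trends of single libraries, such as that with GC content in DOX-positive 2. The fit with a replicate block called 998 genes, 750 of them shared with the 829, 0 of the 10 genes and 8 other redox genes. The cause of these differences was not tested.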
